A study of Mus musculus with 20 samples.

Results

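NMDA receptors are glutamate-gated ion channels of excitatory synapses, and the genes described here encode 6 of their subunits: Grin1, Grin2a, Grin2b, Grin2c, Grin2d and Grin3a. The members were taken by gene symbol from a fixed list, and all 6 were found among the 19463 genes of the table. Whole brains of male C57BL/6J mice were sequenced in 4 groups of 5 mice, 20 mice in all: Katnal2-KO at 3 weeks, WT at 3 weeks, Katnal2-KO at 10 weeks and WT at 10 weeks. The Katnal2-KO mice carry a germline deletion of exon 3 of Katnal2, a katanin-family gene linked to autism. Its product resembles proteins that sever microtubules, but the paper states that severing by Katnal2 itself has not been seen directly. The deletion was made from the Katnal2tm1a(EUCOMM)Wtsi allele by crossing to Protamine-Flp mice and treating embryos with HTNC, a Cre protein that enters cells, so it is not limited to a tissue. WT mice are the controls at each age, and no group received a drug. Values are normalised read counts made by the authors, in which 1 unit is close to 1 read, with 23266221 to 35713596 reads per mouse as estimated from the spacing of low values. In whole brain, fewer cells of a type and less RNA per cell cannot be told apart.

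An NMDA receptor is a tetramer. It holds the obligatory GluN1 subunit, encoded by Grin1, which binds the co-agonist glycine or D-serine, together with GluN2 subunits, which bind glutamate, or the glycine-binding GluN3 subunits. The GluN2 subunits set channel kinetics, magnesium block and coupling to intracellular proteins. In rodent forebrain GluN2B and GluN2D predominate early in life, GluN2A rises after birth in what is called the GluN2B to GluN2A switch, and GluN2C is best known from cerebellar granule cells and also from astrocytes and thalamus.

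The stretch of the third membrane segment that forms the gate of the channel is shared across the family, and it is shown for 4 of the genes to make clear how alike and how separable their transcripts are. The 27 coding bases around the Lurcher motif, read 5′ to 3′ from the longest protein-coding GENCODE M21 transcript of each of these genes, were as follows, with capitals marking the bases that differ from Grin1.
Grin1: tcctacactgccaacctggcagccttc
Grin2a: AGTtacacAgccaacctggcTgccttc
Grin2c: AGctacacGgccaaTctggcagccttc
Grin3a: AcAtacacAgcGaacTtggcTgcTGtc
Grin2c differed from Grin1 at 4 of the 27 bases, Grin2a at 5 and Grin3a at 8. Grin2a and Grin2c differed from each other at 4. Across all 6 genes, between 0% and 0.12% of the runs of 31 bases of a member's transcripts occurred in another member, so reads were largely assignable within the family.

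The 6 genes lie on 6 chromosomes, all on the minus strand of GRCm38, and differ widely in length and base composition. Grin1 (ENSMUSG00000026959, chr2:25291181-25319187) has a longest coding transcript of 4276 bases with 59.4% GC. Grin2c (ENSMUSG00000020734, chr11:115249169-115267243) has one of 4895 bases with 62.1% GC, and Grin2d (ENSMUSG00000002771, chr7:45831883-45878378) one of 5431 bases with 65.0% GC. These 3 are the short, GC-rich members. Grin2a (ENSMUSG00000059003, chr16:9567898-9995560) has 14634 bases with 44.8% GC. Grin2b (ENSMUSG00000030209, chr6:135713233-136173511) has 24060 bases with 45.7% GC, and Grin3a (ENSMUSG00000039579, chr4:49661611-49845744) has 7491 bases with 49.2% GC. These 3 are the long, GC-poorer members. The kit does not mark strand, and exons of Grin1 overlap the antisense gene Grin1os, which holds 10.3% of the 31-base runs of Grin1, so reads of the pair cannot be fully told apart. For Grin2d, 8.41% of these runs were shared with the antisense gene Gm45441, and for Grin2a 11.9% were shared with Gm7328.

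Before any comparison, 4 libraries stood out. Both replicate 5 mice at 10 weeks stood apart, with a median correlation with the other mice of their age of 0.967 in the KO mouse and 0.974 in the WT mouse, against 0.9845 to 0.9863 in the other 8. In these mice genes with transcripts of at least 4715 bases differed from those of at most 2056 bases by -0.64 (KO) and -0.49 (WT) on the log2 scale, measured from the median of their age, and genes with at least 55.2% GC differed from those with at most 45.6% by 0.81 and 0.65. Both replicate 3 mice at 3 weeks showed a smaller difference by length, of -0.24 (KO) and -0.27 (WT), with GC differences of 0.075 and 0.053. Their median correlations were 0.9829 (KO) and 0.9862 (WT), nearer to the 0.9875 to 0.9895 of the other 3-week mice. The other 16 mice lay between -0.054 and 0.11 for length and between -0.098 and 0.047 for GC.
At 10 weeks the subunit genes moved with this measure in both replicate 5 mice. In the KO replicate 5 mouse Grin2b was at 0.393 times the mean of the other 4 mice of its group, Grin2a at 0.634 and Grin3a at 0.738, while Grin1 was at 1.45 times, Grin2c at 1.46 and Grin2d at 1.42. In the WT replicate 5 mouse the same 3 long members were at 0.561 (Grin2b), 0.676 (Grin2a) and 0.787 (Grin3a), and the short ones at 1.22 (Grin1), 1.41 (Grin2c) and 1.28 (Grin2d). All 6 genes of both mice lay outside the range of the other 4 mice of their group. Grin2b was the member that moved most, and only 3.03% of genes in the KO mouse and 4.38% in the WT mouse were lower relative to the other mice. At 3 weeks the replicate 3 mice had Grin2b at 0.632 (KO) and 0.628 (WT) and Grin2a at 0.718 and 0.785 of the other 4, with Grin1 at 0.874 and 0.95. Grin2c was at 0.885 in the KO and 1.13 in the WT mouse, and Grin2d at 0.89 and 0.925. In the KO mouse the short members were thus lower as well, and in the WT mouse they had no shared direction. Comparisons of the subunit genes are therefore given for all mice and, where they rest on these libraries, again without these 4 mice or with a smooth trend of transcript length and GC content subtracted from each mouse. Why these libraries differ was not tested.

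**Figure D1:**
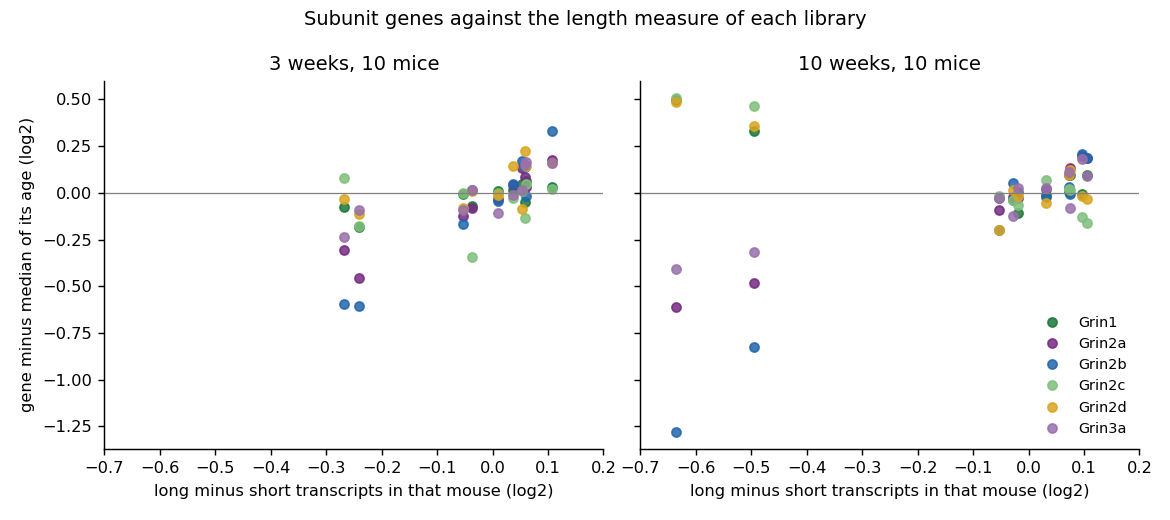
Each point is 1 subunit gene in 1 mouse, with the log2 difference of genes with long from genes with short transcripts in that mouse on the x axis and the log2 difference of the gene from the median of its age on the y axis. The 2 mice at -0.64 and -0.49 in the right panel are the replicate 5 mice of 10 weeks, with Grin2a, Grin2b and Grin3a below 0 and Grin1, Grin2c and Grin2d above 0, and the 2 mice at -0.24 and -0.27 in the left panel are the replicate 3 mice of 3 weeks.

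Levels of different genes can be set side by side only per length. Per kilobase of merged exon, Grin1 was the most abundant subunit transcript in each group, at 1736 ± 80.2 (SD, n = 5) in WT mice at 3 weeks and 1769 ± 179 at 10 weeks. Among the GluN2 genes Grin2c followed, at 636 ± 73.3 and 685 ± 121 at the same ages, then Grin2b at 477 ± 90.3 and 496 ± 119 and Grin2a at 247 ± 28.3 and 303 ± 52.1. Grin2d (129 ± 11.6 and 116 ± 16.5) and Grin3a (132 ± 14.1 and 111 ± 12.7) were the lowest. Katnal2-KO mice had the same order at each age.
Not every neighbour in this order was separated by more than the spread between mice. Grin1 lay above all other members without overlap in each group. The ranges of Grin2c and Grin2b overlapped in each group, for example 522 to 700 against 324 to 548 in WT mice at 3 weeks. Grin2b and Grin2a did not overlap at 3 weeks in either genotype and did at 10 weeks, where the replicate 5 mice set the lower end of Grin2b (305 in WT and 222 in KO). Grin2d and Grin3a overlapped in each group and exchanged places between the ages. Summed per kilobase over the 4 GluN2 genes, Grin2c made up 42.7% in WT at 3 weeks and 42.8% at 10 weeks, Grin2b 32.1% and 31.03%, Grin2a 16.6% and 18.9%, and Grin2d 8.65% and 7.23%. The order of the first 4 genes was the same with the length of the longest coding transcript in place of merged exons, with Grin3a then above Grin2d in each group, although Grin1 in WT mice at 3 weeks was then at 3937 per kilobase. The 2 lengths are close for Grin2b (24842 merged and 24060 bases) and Grin2c (5037 and 4895). This check therefore cannot test the order of Grin2c and Grin2b, which rests on these annotated lengths.

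**Figure D2:**
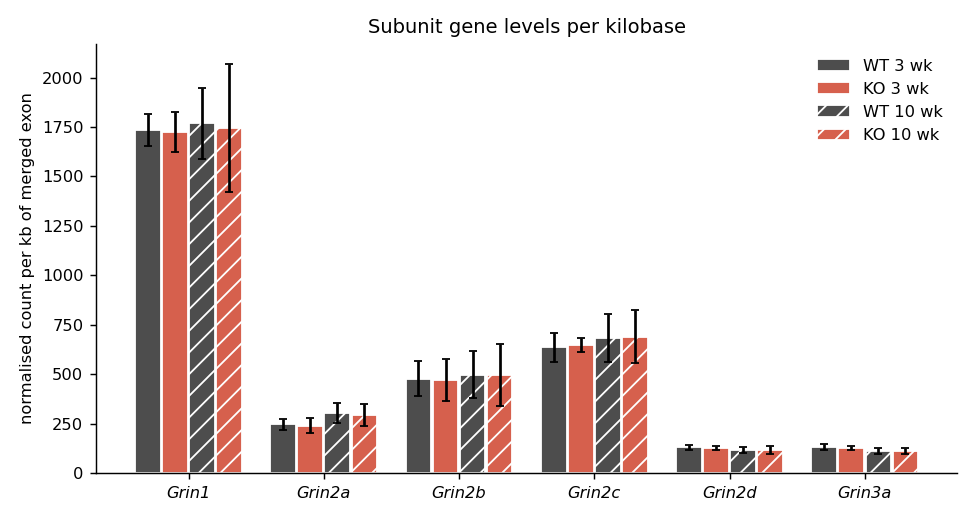
Bars give the mean normalised count per kilobase of merged exon of each subunit gene in the 4 groups, with error bars of 1 SD over 5 mice. Grin1 was at 1723 to 1769 in the 4 groups, the GluN2 genes followed in the order Grin2c, Grin2b, Grin2a and Grin2d, and Grin3a was at the level of Grin2d.

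The first comparison asked whether loss of Katnal2 went with a change in subunit transcripts at 3 weeks. None of the 6 genes passed an adjusted p of 0.05, and the estimated log2 fold changes of all 6 were at most 0.051 in size. The intervals given below leave larger differences possible. The obligatory subunit gene Grin1 had normalised counts of 17116, 16910, 14987, 17392 and 17184 in the KO mice of replicates 1 to 5. In WT mice Grin1 had 17559, 17787, 16157, 16466 and 16205, so the groups overlapped, with the lowest value of each in replicate 3. Its log2 fold change was -0.011 (SE 0.050, 95% interval -0.12 to 0.098).
Grin2b, the GluN2 subunit gene of early life, had counts of 11775, 10792, 7955, 15270 and 12511 in KO mice. The WT mice had 13623, 11985, 8039, 13362 and 12259, and in each group replicate 3 was the lowest. The log2 fold change of Grin2b was -0.031 (SE 0.17, interval -0.39 to 0.33). For Grin2a the KO counts were 4389, 4118, 3262, 5069 and 4608, and the WT counts 4909, 4577, 3629, 4752 and 4245, with a log2 fold change of -0.051 (SE 0.11, interval -0.29 to 0.18). The groups overlapped for Grin2a, and replicate 3 was again the lowest of each.
Grin2c ranged from 2955 to 3390 in KO and from 2632 to 3526 in WT mice, with a log2 fold change of 0.033 (SE 0.075). Grin2d ranged from 762.1 to 920 and from 776 to 962, with -0.032 (SE 0.075). Grin3a, a subunit that lowers calcium entry through the receptor, ranged from 1471 to 1774 and from 1347 to 1781, with -0.050 (SE 0.078). In the limma fit across all genes, 0 of the 6 members and 0% of 17610 genes passed an adjusted p of 0.05, with 429 genes at an unadjusted p under 0.05 and a smallest adjusted p of 0.181. The median log2 fold change was -0.032 over the members and 0.0042 over all genes. Without both replicate 3 mice the members' log2 fold changes ran from -0.098 (Grin3a) to 0.10 (Grin2c), and 0 members passed.

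**Figure D3:**
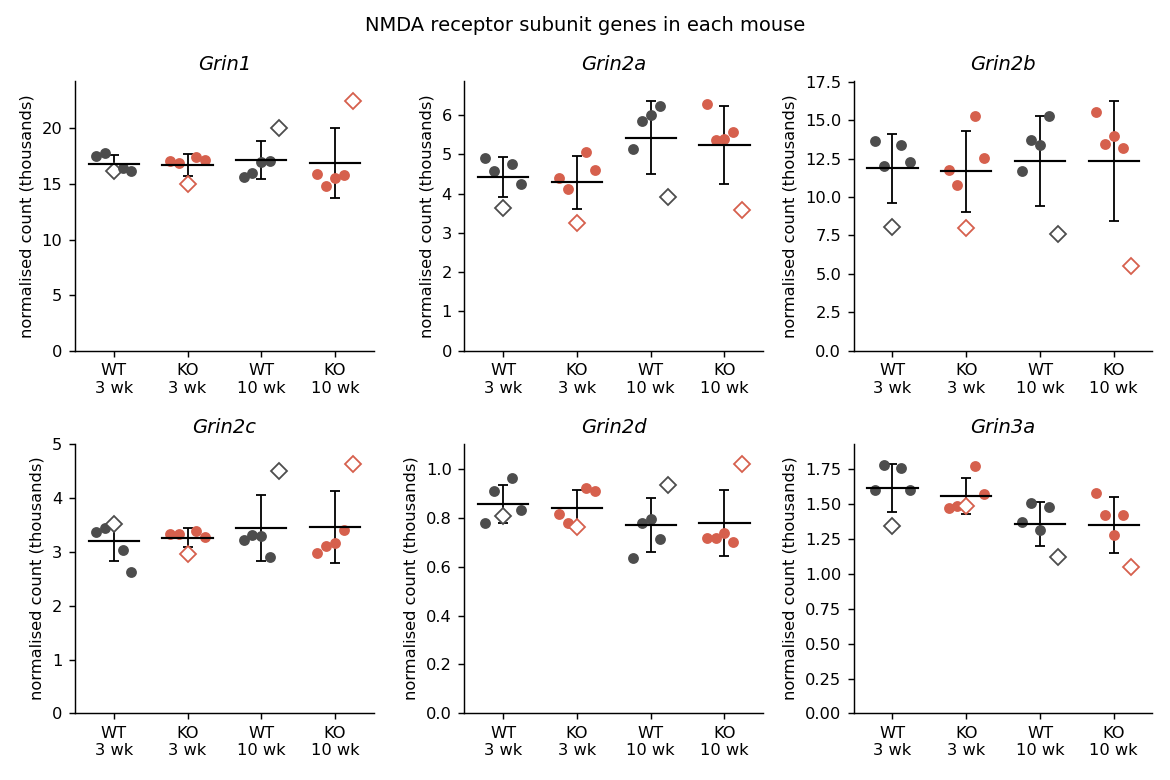
Normalised counts of the 6 subunit genes in each of the 20 mice, with grey for WT and red for Katnal2-KO, horizontal lines for means and bars for 1 SD over 5 mice. Open diamonds mark replicate 3 at 3 weeks and replicate 5 at 10 weeks, which lie low for Grin2a and Grin2b at both ages and high for Grin1, Grin2c and Grin2d at 10 weeks.

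At 10 weeks no subunit gene passed in the same comparison either, and the largest estimated log2 fold change was -0.057, of Grin2a. Here the spread was set by the replicate 5 mice. For Grin1 the KO counts were 15906, 14784, 15530, 15841 and 22471, and the WT counts 15666, 15993, 17027, 17041 and 20072. In both genotypes replicate 5 was the highest, and the groups overlapped. The log2 fold change of Grin1 was -0.033 (SE 0.11, interval -0.28 to 0.21).
For Grin2b the KO mice had 15517, 13455, 13932, 13214 and 5510 and the WT mice 11676, 13697, 13381, 15287 and 7583. Replicate 5 was the lowest in both, and the log2 fold change of -0.046 had an interval of -0.64 to 0.55, the widest of the 6 genes. The Grin2a counts were 6281, 5361, 5384, 5558 and 3582 for KO, and 5140, 5843, 5994, 6231 and 3923 for WT, with an interval of -0.40 to 0.29.
The log2 fold changes of the other 3 were 0.0036 (SE 0.14) for Grin2c, 0.013 (SE 0.13) for Grin2d and -0.015 (SE 0.12) for Grin3a. Across all genes, 0 of 6 members and 0% of 17613 genes passed in limma, with 199 genes at an unadjusted p under 0.05. The median log2 fold change was -0.024 over the members and -0.0047 over all genes. Without both replicate 5 mice the intervals narrowed to -0.11 to 0.22 for Grin2b, -0.18 to 0.11 for Grin2a and -0.18 to 0.010 for Grin1, and 0 members passed.

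The third question was whether the genotype difference itself differed between the ages. In the interaction fit with all 20 mice, 0 of 6 members and 0% of 17637 genes passed, with 296 genes at an unadjusted p under 0.05. The members' interaction terms ran from -0.029 (Grin2c) to 0.045 (Grin2d) in log2 fold change. The widest interval was that of Grin2b, -0.73 to 0.70, and without the 4 mice it was -0.18 to 0.36.

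Between 3 and 10 weeks, the estimated changes of the subunit genes had different directions, and the genes were not tested against each other. In WT mice with all libraries, Grin2a was 1.22-fold higher at 10 weeks and Grin3a 0.840-fold and Grin2d 0.895-fold of their 3-week levels, but none of the 6 passed the threshold. Grin1, Grin2b and Grin2c were within 0.10 of 0 in log2 fold change. The call rate behind this was 4.62% of 17630 genes higher and 4.7% lower at 10 weeks, against 0 of 6 members in either direction.
Grin2a, which encodes the GluN2 subunit that rises after birth, had a log2 fold change of 0.28 (SE 0.12, interval 0.022 to 0.55, adjusted p = 0.168 in limma). Of the 5 WT mice at 10 weeks, 4 had counts of 5140 to 6231, above the highest 3-week value of 4909, and replicate 5 had 3923. Without the WT replicate 5 mouse Grin2a rose by 0.40 (adjusted p = 0.00758), without all 4 mice by 0.33 (adjusted p = 0.00570) and with the length and GC trend removed by 0.25 (adjusted p = 0.000696). The call thus rested on how these libraries were treated, while the direction was the same in each of these fits.
Grin3a had 1601, 1781, 1347, 1758 and 1601 in WT mice at 3 weeks and 1371, 1510, 1319, 1483 and 1119 at 10 weeks. Its log2 fold change was -0.25 (SE 0.098, interval -0.46 to -0.041, adjusted p = 0.130). Apart from replicate 3 at 3 weeks, each 10-week mouse was below each 3-week mouse, and Grin3a fell by 0.25 without the 4 mice (adjusted p = 0.0190) and by 0.26 with the trend removed (adjusted p = 0.00555).
Grin2d had 776, 910, 805, 962 and 830 at 3 weeks and 635, 777, 794, 712 and 932 at 10 weeks, where the replicate 5 mouse was the highest. The log2 fold change was -0.16 (SE 0.10, adjusted p = 0.363) with all mice, -0.25 (adjusted p = 0.0716) without the 4 mice and -0.31 (adjusted p = 0.0251) with the trend removed.
Grin2b, in contrast, gave no call in any fit. Without the 4 mice its WT counts were 11985 to 13623 at 3 weeks and 11676 to 15287 at 10 weeks, a log2 fold change of 0.073 (interval -0.088 to 0.23).

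Age was compared in the same way in Katnal2-KO mice. With all mice 0 of 6 members passed, where 3.78% of 17641 genes were higher and 4.53% lower at 10 weeks. Grin2a had a log2 fold change of 0.28 (SE 0.15, adjusted p = 0.295), Grin3a -0.22 (SE 0.10, adjusted p = 0.240) and Grin2d -0.12 (SE 0.11, adjusted p = 0.595). Of the KO mice at 10 weeks, 4 had Grin2a counts of 5361 to 6281, above the highest 3-week count of 5069, and replicate 5 had 3582.
Without the KO replicate 5 mouse Grin2a rose by 0.41 (adjusted p = 0.0141) and Grin2d fell by 0.22 (adjusted p = 0.0372).
Without the 4 mice, Grin2a rose by 0.31 (adjusted p = 0.00593) and Grin2d fell by 0.25 (adjusted p = 0.0162). The Grin2d counts in these mice were 779 to 920 at 3 weeks and 700 to 737 at 10 weeks, and did not overlap. Grin1 also fell, by 0.15 (adjusted p = 0.0119), in this fit, with 16910 to 17392 at 3 weeks and 14784 to 15906 at 10 weeks. With all mice its log2 fold change was 0.00081, and with the trend removed it was -0.088 (adjusted p = 0.276), so no direction is given for Grin1. Grin3a was at -0.15 (adjusted p = 0.188) without the 4 mice, and fell by 0.19 with the trend removed (adjusted p = 0.0334). With the trend removed and the replicate number as a block, Grin2a remained called in KO mice (adjusted p = 0.00522), and the calls of Grin2d and Grin3a were lost. The labels do not link same-numbered mice of different ages, so this block need not stand for anything they share. Grin2b was at 0.17 (interval -0.029 to 0.36) and Grin2c at -0.076 (interval -0.18 to 0.024) without the 4 mice.
Removing the 4 mice raised the share of all genes called to 8.52% higher and 7.62% lower in WT and to 11% and 10.6% in KO mice, so 2 of 6 members in WT and 3 of 6 in KO stand against a higher background than with all mice. Any batch or depth that differs between the ages cannot be told apart from age, and the estimated depth was 26159371 to 35713596 reads at 3 weeks and 23266221 to 27997084 at 10 weeks.

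**Figure D4:**
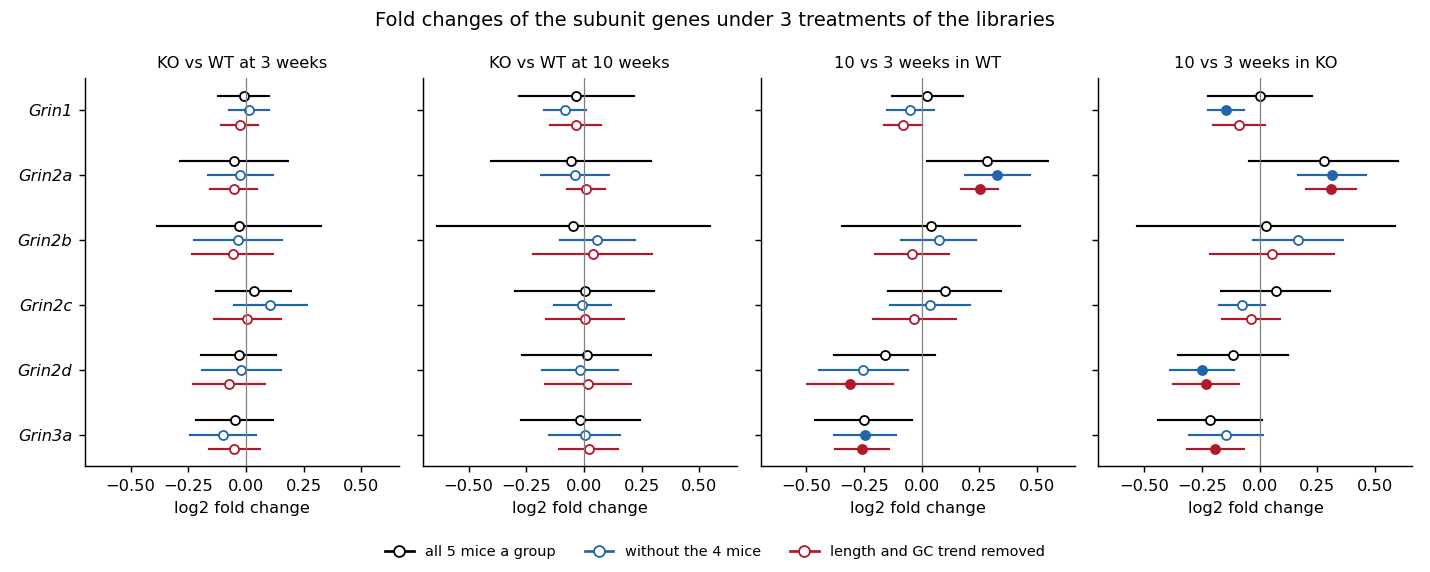
Log2 fold changes of the 6 subunit genes with 95% intervals in 4 comparisons, for all mice (black), without replicate 3 at 3 weeks and replicate 5 at 10 weeks (blue), and with the trend of transcript length and GC content removed (red), where filled points have an adjusted p under 0.05. In KO against WT no point is filled, and between ages Grin2a is filled above 0 in both genotypes once the 4 mice are left out or the trend is removed.

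The ratio of Grin2a to Grin2b within a mouse cancels any scaling shared by all genes of that mouse. It follows the switch between the major GluN2 subunits of the forebrain. Gene-specific factors of the normalisation need not cancel in this ratio, nor need differences between libraries that follow transcript length or GC content. At 3 weeks the WT ratios were 0.360, 0.382, 0.451, 0.356 and 0.346, and the KO ratios 0.373, 0.382, 0.410, 0.332 and 0.368. At 10 weeks the WT ratios were 0.440, 0.427, 0.448, 0.408 and 0.517, and the KO ratios 0.405, 0.398, 0.387, 0.421 and 0.650. Replicate 3 at 3 weeks and replicate 5 at 10 weeks were the highest of their groups in both genotypes.
The ratio was higher at 10 weeks by 0.24 in log2 in WT (1.18-fold) and by 0.25 in KO mice (1.19-fold). By exact two-sided permutation over 5 against 5 mice the p-values were 0.0397 and 0.0476, where 0.00794 is the smallest possible, and both became 0.119 after Benjamini-Hochberg adjustment over the 5 comparisons made, so neither passed. The KO difference was 0.11 without its replicate 5 mouse at 10 weeks (exact permutation p = 0.0952). The WT difference passed in only 1 of 14 alternative settings, without replicate 3 at 3 weeks (0.31, exact permutation p = 0.00794, adjusted 0.0397). That setting left out the highest 3-week ratio and kept the highest 10-week ratio, 0.517 in replicate 5. Without the 4 mice the 3-week and 10-week groups did not overlap in either genotype, with differences of 0.25 in WT and 0.15 in KO mice, each at an exact permutation p of 0.0286, the smallest 4 against 4 mice can give, and 0.0714 adjusted. The KO and WT ratios differed by -0.020 at 3 weeks (exact permutation p = 0.817) and by -0.011 at 10 weeks (exact permutation p = 0.960), and the interaction was 0.0088 (exact permutation p = 0.964). Without both replicate 5 mice the KO minus WT difference at 10 weeks was -0.097 (exact permutation p = 0.0571, adjusted 0.159).

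**Figure D5:**
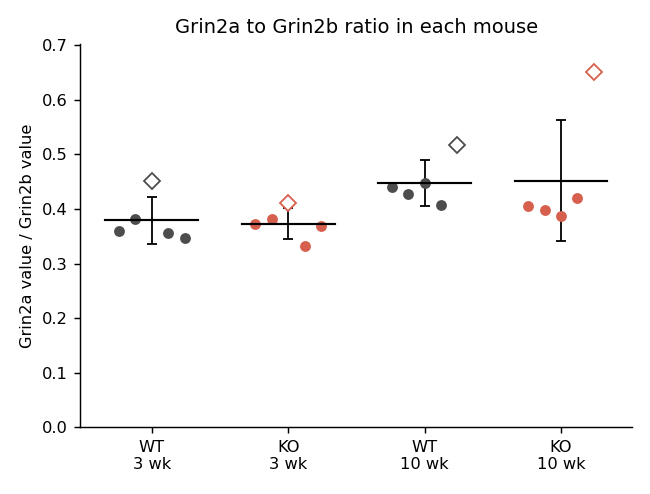
The ratio of the Grin2a value to the Grin2b value in each mouse, with lines for means and bars for 1 SD over 5 mice, and open diamonds for replicate 3 at 3 weeks and replicate 5 at 10 weeks. Leaving the diamonds aside, the 3-week mice lie between 0.332 and 0.382 and the 10-week mice between 0.387 and 0.448.

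The genes that accompany NMDA receptors at the synapse were examined as 6 lists of pathway genes. No gene of any list passed in KO against WT at either age. Between ages, the counts below stand against 4.62% of all genes higher and 4.7% lower in WT and 3.78% and 4.53% in KO mice, or, for the counts without the 4 mice, 8.52% and 7.62% in WT and 11% and 10.6% in KO mice. With all mice, the scaffold list held 2 of 12 genes higher and 0 lower in both genotypes: Shank1, which ties the receptor complex to the cytoskeleton, at 0.39 in WT and 0.34 in KO mice (log2), and Dlgap4 at 0.30 in both. The scaffold counts without the 4 mice were 5 higher and 1 lower in WT and 7 and 1 in KO mice. Dlg4, the gene of PSD-95, which anchors GluN2 subunits, had 18335 ± 614 in WT mice at 3 weeks and 18552 ± 599 (SD, n = 5) at 10 weeks and did not pass.
Among 19 kinases and phosphatases, 5 were higher and 1 lower in WT and 3 and 1 in KO mice, and without the 4 mice 5 and 1 in WT and 5 and 2 in KO mice. Ptpn5, the gene of the phosphatase STEP, which removes GluN2B from synapses, rose by 0.43 in WT and 0.44 in KO mice, and Ptk2b, the gene of the kinase Pyk2, by 0.41 and 0.42. Fyn, a Src-family kinase that phosphorylates GluN2 subunits, fell by 0.67 in WT and 0.69 in KO mice, and is also expressed by oligodendrocytes.
Kif17, the kinesin known for carrying GluN2B along dendrites, was the only called gene of 11 in the trafficking list, at 0.38 in WT and 0.39 in KO mice. That list held, without the 4 mice, 5 higher and 2 lower in WT and 3 and 2 in KO mice. Rasgrf1, a calcium-dependent exchange factor, was the only one of 13 partners and signalling genes that passed, at 0.30 in both. The co-agonist list held 1 higher of 9 in WT (Dao, D-amino acid oxidase, at 0.78) and 1 lower in KO mice (Slc6a5, a glycine transporter, at -0.80), and the 6 regulators linked to the subunit switch held none in either genotype. Without the 4 mice the co-agonist list held 1 higher and 1 lower in WT and 0 and 2 in KO mice, and the regulators 0 in WT and 1 higher in KO mice. The median log2 fold change in WT mice was 0.14 over the scaffolds, 0.041 over the kinases and phosphatases and -0.021 over the partners, against 0.0015 over all genes.

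Cell type markers moved with age beside these results. All 8 oligodendrocyte markers were lower at 10 weeks in both genotypes, with a median log2 fold change of -1.12 in WT and -1.28 in KO mice and summed values of 391187 to 575199 at 3 weeks and 148787 to 196355 at 10 weeks. Of 8 cerebellar granule cell markers, 1 was lower in WT and 4 in KO mice (2 and 5 without the 4 mice), with summed values of 23659 to 30355 at 3 weeks and 19067 to 25135 at 10 weeks. The 8 general neuron markers held 1 higher gene in each genotype and summed to 158449 to 169221 at 3 weeks and 164319 to 180833 at 10 weeks. Of 4 oligodendrocyte precursor markers 3 were lower in each genotype, and of 3 blood markers 3 were lower in WT and 2 in KO mice. In WT mice 2 of 6 choroid plexus markers were higher, and 1 of 8 forebrain excitatory neuron markers and 1 of 6 thalamus and brainstem markers were lower. In KO mice 1 forebrain excitatory neuron marker was higher. These forebrain markers held, without the 4 mice, 2 higher and 1 lower in WT and 5 and 1 in KO mice. Markers of inhibitory neurons, astrocytes, microglia, endothelium and pituitary gave 0 calls with all mice. The 4 mice that stood apart also differed in marker sums. The KO replicate 3 mouse at 3 weeks had the highest oligodendrocyte sum of its group (575199, median 449223). Its neuron sum was the lowest (158449, median 167117). In the WT replicate 3 mouse the oligodendrocyte sum was the highest (442086, median 426057), and the neuron sum was not the lowest. Both replicate 5 mice at 10 weeks had the lowest neuron sum of their group. No marker was at 0 throughout a group, and the part of the markers in the results on subunit genes was not tested.

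By the likeness rule, Grin2a and Grin2b were followed most closely by genes with mostly long transcripts. Likeness was the lower of 2 Pearson correlations of log2 values, each over the 10 mice of 1 age, among 12798 genes. For Grin2b the 3 most alike genes were Braf (0.983), Dmxl1 (0.983) and Tmem178b (0.981), and for Grin2a they were Dmxl2 (0.982), Scn2a (0.978) and Cacna1e (0.978), all but Tmem178b (3178 bases) with transcripts of 8935 to 14921 bases. Grin3a was followed by Elovl6 (0.957) and Dlg2 (0.930). For Grin1 the genes were Plch2 (0.930), Usp19 (0.900) and Akap8l (0.897), for Grin2c Cyp46a1 (0.919), Clasrp (0.918) and Stap2 (0.901), and for Grin2d Hid1 (0.879), Map6 (0.829) and Tmem63b (0.820). These 9 transcripts had 55.0% to 61.2% GC. The points share the libraries that stood apart, so the values are a description only. Grin2a and Grin2b correlated with each other at 0.969 at 3 weeks and 0.973 at 10 weeks, whereas Grin1 and Grin2b went from 0.735 to -0.898.

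Grin3b, the gene of the remaining GluN3 subunit and not a member of the list, was at 21.9 to 64.8 normalised counts and shares 27% of its 31-base runs with Tmem259. At 3 weeks its KO counts were 48.0, 57.3, 51.9, 37.8 and 49.0, and its WT counts 26.9, 32.2, 31.1, 31.2 and 41.7. The groups overlapped in 1 pair of mice, and the log2 fold change of 0.57 (SE 0.16) had an unadjusted limma p of 0.00378 and an adjusted p of 1.00. Between ages in KO mice it was at -0.42 (adjusted p = 0.314) with all mice, -0.61 (adjusted p = 0.0433) without the 4 mice and -0.53 (adjusted p = 0.0658) with the trend removed. Grin1os, the antisense gene at Grin1, was 208 to 283 in WT mice at 3 weeks and 313 to 399 at 10 weeks, and rose by 0.51 (adjusted p = 0.0159) with no overlap of the groups. In KO mice it was at 0.47 (adjusted p = 0.0769), also with no overlap, and it passed at 0.36 without the 4 mice (adjusted p = 0.0342).

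As a check of the labels, Katnal2 had 78.1 to 96.0 in KO and 99.3 to 115 in WT mice at 3 weeks, which did not overlap, and 95.1 to 125 and 101 to 141 at 10 weeks, which did. The value counts all exons of the gene, and loss of exon 3 alone need not lower it, so it does not check the deletion. Pituitary markers, of a gland that can be left on a brain, summed to between 1.18 and 7341 per mouse, and their part in the results was not tested.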

How the data were processed

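Poly-A RNA of whole brain was sequenced from 20 mice (TruSeq, paired ends). Per the labels and the submitters' processing notes, the authors estimated transcript abundance with Salmon 1.1.0 on GRCm38 (correcting for GC bias), summed it to genes through tximport and scaled it by DESeq2 1.26.0 in R 3.6.2, and the deposited table holds this normalised signal for 19463 genes. For R and the scaling package the study's methods name other versions than these notes. Whole reads could not be recovered, since the normalisation carries gene-specific factors, so no count test was used. Gene symbols, coordinates and sequences came from GENCODE M21, which matched 19447 IDs. The values of a mouse sum to between 27310523 and 28423042.

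Each comparison was fitted with limma 3.58.1 in R 4.3.3 after adding a pseudocount of 1 and taking log2, with the variance trended on level, for genes averaging 10 or more. P-values were two-sided and adjusted by Benjamini-Hochberg over all genes tested (threshold 0.05). Fold changes are on the log2(value + 1) scale. KO and WT were compared within each age (5 against 5 mice), ages within each genotype, and the interaction over 20 mice. The fit was tested on simulated data, and in each comparison it missed a part of the changes placed in them. The Grin2a to Grin2b ratio was tested by exact permutation, and figures were drawn with matplotlib 3.10.9 under Python 3.11.15.

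All 6 members were named, with Grin3b, Katnal2, the 3 genes most like each member, and per pathway list up to 2 genes called upward and 2 downward with age in both genotypes. The members, lists and alternatives were chosen with earlier results of these data known. Dao, Slc6a5, Dlg4, Grin1os, Homer1, Dlg2 (as a scaffold), Srr and Ppp3ca are outside this rule and were named after their values were seen. A gene chosen by the rule, and the pore segments of Grin2b and Grin2d, are not reported here. Leaving out 4 mice and removing the trend of length and GC content (known for 85.1% of tested genes, with the others left as they were), which also removes any age difference that follows length or GC, were added after seeing the data. The labels do not say whether mice shared litters, and the meaning of a replicate number is not given.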

Additional observations from a re-analysis of the deposited data

Results flagged for a closer look

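Of 28 sets of 5 mice examined (6 subunit genes and the Grin2a to Grin2b ratio in 4 groups), 8 had 1 mouse whose gap to its nearest neighbour exceeded 0.71 of the range. For any 1 set chance gives this about 1 time in 20. The sets share mice and hold correlated genes, so the 8 are not independent and cannot be set against that rate. All 8 were the libraries described above. In Katnal2-KO mice at 10 weeks replicate 5 met this for Grin1 (22471), Grin2b (5510), Grin2c (4639), Grin2d (1020) and the log2 ratio (-0.62). The WT replicate 5 mouse at 10 weeks met this for Grin2c (4498). In Katnal2-KO mice at 3 weeks replicate 3 met this for Grin1 (14987) and Grin2c (2955). The cause of these values was not tested.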

How the results depend on the processing

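Each comparison was refitted with another pseudocount, other filters, other scalings, all 20 mice in 1 fit, the replicate block and each mouse left out, and, chosen after seeing the data, without the 4 mice and with the length and GC trend removed. In KO against WT and in the interaction 0 subunit genes passed under any of these. Signs turned for values near 0, and the cause was not tested. Without the 4 mice, KO against WT gave 1 gene called at each age and log2 fold changes of 0.0134 for Grin1 at 3 weeks and, at 10 weeks, of 0.0581 for Grin2b, -0.0066 for Grin2c, -0.0164 for Grin2d and 0.0034 for Grin3a. At 10 weeks quantile normalisation gave 0.0005 for Grin3a, and removing the trend, with or without the replicate block, 0.0083 for Grin2a, 0.038 for Grin2b and 0.0207 for Grin3a.

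For age in WT, the genes called (815 higher and 828 lower with all mice) were 3000 without replicate 5, 2850 without the 4 mice, 3120 with the trend removed and 2551 with the block as well, and the subunit genes called were 1, 2, 3 and 3. Without replicate 5, Grin1 was at -0.0348 and Grin2c at -0.0014, without the 4 mice Grin1 was at -0.0493, and with the trend removed, with or without the block, Grin1 was at -0.082, Grin2b at -0.0414 and Grin2c at -0.0329. For age in KO mice, the genes called (667 higher and 800 lower with all mice) were 3759, 3811, 3121 and 2476 in the same order, and the subunit genes called 2, 3, 3 and 1. Grin1 was at -0.1062 without replicate 5, -0.1451 without the 4 mice and -0.0884 with the trend removed, and Grin2c at -0.0406, -0.0758 and -0.038. In the interaction, Grin2a was at 0.0063 and Grin2b at 0.0069 after quantile normalisation, Grin2a at 0.0024 after rescaling to the same total, at 0.0126 without both replicate 5 mice and at 0.0606 with the trend removed, and Grin2b at 0.0891 without both replicate 5 mice, 0.0931 without the 4 mice and 0.0959 with the trend removed. The log2 ratio of Grin2a to Grin2b differed by 0.0093 between genotypes at 3 weeks without the 4 mice, and its interaction was -0.0765 without both replicate 5 mice and -0.1061 without the 4 mice.

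With 1 mouse left out at a time, KO against WT at 3 weeks ranged from -0.0257 to 0.0279 for Grin1, -0.1205 to 0.0437 for Grin2a, -0.1649 to 0.099 for Grin2b, -0.0362 to 0.0693 for Grin2c and -0.0674 to 0.0108 for Grin2d, with 0 to 1 genes called. At 10 weeks it ranged from -0.1403 to 0.0246 for Grin1, -0.1693 to 0.0736 for Grin2a, -0.2109 to 0.2234 for Grin2b, -0.1065 to 0.1035 for Grin2c, -0.0881 to 0.0847 for Grin2d and -0.0835 to 0.0718 for Grin3a. Age in WT ranged from 912 to 3000 genes called and 0 to 1 subunit genes, from -0.0348 to 0.0546 for Grin1, 0.2145 to 0.396 for Grin2a, -0.0927 to 0.2066 for Grin2b, -0.0014 to 0.1554 for Grin2c, -0.2324 to -0.0941 (without 10-week replicate 1) for Grin2d and -0.3151 to -0.1824 for Grin3a. Age in KO ranged from 896 to 3759 genes called and 0 to 2 subunit genes, from -0.1062 to 0.0448 for Grin1, 0.183 (without 3-week replicate 3) to 0.4086 for Grin2a, -0.1034 to 0.2957 for Grin2b, -0.0406 to 0.1193 for Grin2c, -0.2165 to -0.0803 (without 3-week replicate 4) for Grin2d and -0.2761 to -0.1295 (without 10-week replicate 5) for Grin3a. The interaction ranged from -0.1294 to 0.0356 for Grin1, -0.1181 to 0.1248 for Grin2a, -0.18 to 0.2544 for Grin2b, -0.1391 to 0.0709 for Grin2c, -0.0558 to 0.117 for Grin2d and -0.034 to 0.1214 for Grin3a. The ratio difference ranged from -0.0553 to 0.0444 (KO against WT, 3 weeks), -0.1499 to 0.0417 (10 weeks), 0.1895 to 0.3072 (age in WT), 0.113 to 0.3005 (age in KO, lowest without 10-week replicate 5) and -0.1296 to 0.0619 (interaction).

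Same-numbered mice of the 2 genotypes correlated in their deviations at -0.00913 to 0.26 at 3 weeks and 0.0749 to 0.705 at 10 weeks. The highest value of each age was that of the mice that stood apart, replicate 3 at 3 weeks and replicate 5 at 10 weeks. The other pairs reached at most 0.147 at 3 weeks and 0.175 at 10 weeks. Whether same-numbered mice share anything is not known from the labels, and the main fits did not pair them. The replicate block alone gave 913 genes called for age in KO mice and changed no call of a subunit gene.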

Other observations

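Without the 4 mice that stood apart, further genes of the receptor complex passed in both genotypes, and they were picked here after their values were seen. In these fits 8.52% of all genes were called higher and 7.62% lower in WT, and 11% and 10.6% in KO mice. With all mice Homer1, Dlg2 and Srr passed in neither genotype (limma adjusted p of 0.0561 to 0.214). Homer1, a scaffold that links NMDA receptor complexes to metabotropic receptors, rose by 0.77 in WT and 1.04 in KO mice between 3 and 10 weeks (log2, limma adjusted p = 0.00377 and 1.12e-06). Dlg2, which encodes the scaffold PSD-93, fell by 0.29 and 0.20 (adjusted p = 0.00285 and 0.0392). Srr, the gene of serine racemase, which makes the co-agonist D-serine, fell by 0.27 and 0.23 (adjusted p = 0.0138 and 0.0108). Ppp3ca, a catalytic subunit of calcineurin, rose by 0.32 and 0.28 (adjusted p = 0.000368 and 0.000143), and in WT it also passed with all mice (0.26, adjusted p = 0.0285).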
